A study of Mus musculus with 8 samples.

Results

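The melanocyte genes described here are 10 genes chosen by name from the deposited expression table, with no threshold on their values but with earlier results of these data known. They are the pigment enzymes *Tyr*, *Tyrp1* and *Dct*, the melanosome proteins *Pmel*, *Mlana* and *Slc45a2*, the lineage regulators *Mitf* and *Sox10*, and the receptors *Kit* and *Ednrb*. All 10 were found among the 23358 genes of the table. They were measured by RNA-seq in incisors of C57BL/6 mice at 4 weeks of age, in tissue dissected from the cervical loop (CL), from which the incisor keeps growing. The CL head (CLH) contains stem cells of the dental epithelium, and the CL tail (CLT) contains the progenies of these cells. Each region was taken from *Med1* cKO mice (KO in the sample titles), in which Cre recombinase driven by the *Krt14* promoter removes exons 8 to 10 of a floxed *Med1* (MED1 fl/fl) from *Krt14* expressing epithelial cells and their progeny, and from littermate Ctrl mice (WT in the titles). Tissues of several mice were pooled per library, and the 2 libraries of each of the 4 groups came from different litters. The cells were not sorted, so a lower share of a cell type and less RNA per cell cannot be told apart in these libraries.

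Melanocytes are pigment cells of neural crest origin that make melanin inside melanosomes and hand it to keratinocytes of the epidermis and the hair shaft. Their lineage depends on the transcription factor MITF, which binds E-box sequences in the promoters of the pigment enzyme genes, on SOX10, which acts upstream of *Mitf*, and on the receptors KIT and EDNRB, through which migrating precursors receive survival signals. Enamel forming epithelium is not known for melanin synthesis, whereas the hair bulb of pigmented mice holds melanocytes.

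The promoters are shown because the 3 pigment enzyme genes share 1 motif. A link of this motif to their levels in these libraries was not tested. The 250 bases before the annotated start were read from RefSeq (GRCm38.p6, the same coordinates as mm10) and were at hand for 6 of the 10 genes (*Tyr*, *Tyrp1*, *Dct*, *Mitf*, *Kit* and *Ednrb*). Capitals mark the M-box core TCATGTGCT, the E-box CATGTG (which lies inside the M-box core) on either strand, and the cyclic AMP response element TGACGTCA. The windows are chr7:87493513-87493762 on the minus strand for *Tyr*, chr4:80833963-80834212 on the plus strand for *Tyrp1*, chr14:118052247-118052496 on the minus strand for *Dct* and chr6:97991533-97991782 on the plus strand for the most downstream of 3 starts of *Mitf*. Each is written 5′ to 3′ toward the start.
Tyr: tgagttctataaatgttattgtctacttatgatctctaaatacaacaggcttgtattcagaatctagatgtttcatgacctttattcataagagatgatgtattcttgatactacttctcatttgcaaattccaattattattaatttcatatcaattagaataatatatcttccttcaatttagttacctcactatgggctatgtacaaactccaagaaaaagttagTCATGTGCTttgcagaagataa
Tyrp1: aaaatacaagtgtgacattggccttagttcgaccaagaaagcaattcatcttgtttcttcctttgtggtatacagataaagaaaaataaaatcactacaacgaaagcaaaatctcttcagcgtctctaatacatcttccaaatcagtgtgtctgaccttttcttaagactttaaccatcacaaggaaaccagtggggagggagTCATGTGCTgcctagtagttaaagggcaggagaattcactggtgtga
Dct: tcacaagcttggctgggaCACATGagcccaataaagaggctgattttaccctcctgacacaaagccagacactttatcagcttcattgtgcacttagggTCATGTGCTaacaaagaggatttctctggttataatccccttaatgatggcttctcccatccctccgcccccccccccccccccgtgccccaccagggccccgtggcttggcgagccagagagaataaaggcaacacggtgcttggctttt
Mitf: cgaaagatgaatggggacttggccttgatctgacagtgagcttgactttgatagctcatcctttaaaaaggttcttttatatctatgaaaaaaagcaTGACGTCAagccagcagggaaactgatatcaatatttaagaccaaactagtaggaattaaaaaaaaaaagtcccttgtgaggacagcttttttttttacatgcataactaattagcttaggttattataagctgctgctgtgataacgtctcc
The M-box core began 22 bases before the start in *Tyr*, 47 bases in *Tyrp1* and 151 bases in *Dct*. Searched on both strands, it was present in 0.335% of 32851 mouse promoters of the same length, against 12.3% for the E-box alone. *Dct* held a further E-box on the other strand (CACATG). The cyclic AMP response element, present in 1.55% of promoters, began 153 bases before the *Mitf* start shown. None of the 3 motifs was in the windows of *Kit* and *Ednrb* or at the other *Mitf* starts. These are matches of letters and not measured binding sites.

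Depth was similar in all 8 libraries, with totals of about 26590000 to 34420000 reads. *Med1* itself had 7.03 to 9.12 RPKM (reads per kilobase, a level corrected for gene length and library depth) in CLH, where the Ctrl pair lay above the cKO pair, and 9.15 and 8.96 RPKM in cKO CLT against 4.83 (Ctrl CLT 1) and 8.71 (Ctrl CLT 2). The value covers the whole gene and all cells, not the deleted exons in epithelium, so it checks the labels in neither direction. The libraries of Ctrl CLT stood apart from each other. The median absolute difference between the 2 libraries, in log2(RPKM + 1) over 14130 genes, was 0.404 in Ctrl CLT and 0.092 to 0.113 in the other groups. Ctrl CLT 1 lay between Ctrl CLT 2 and both cKO CLT libraries for 54.1% of those genes and for 10 of the 10 melanocyte genes. How the 2 libraries came to differ is not given in the sources used here, and each is given apart throughout, as deposited. The labels call all samples dental epithelial cells. The summed RPKM of 6 ameloblast genes was 12455 to 14258 in CLH and 37295 or more in both Ctrl CLT libraries but only 15.5 and 19.4 in cKO CLT.

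The pigment enzyme and melanosome genes were highest in cKO CLT. In CLH of both genotypes, *Tyrp1*, *Slc45a2* and *Mlana* were near the lower limit of the measurement with 0 to 6 reads per library, and the other genes were above it. The plot of levels by library shows all 10 genes. *Tyr* (chr7:87427405-87493411 in mm10, as are all gene positions here) encodes tyrosinase, the rate limiting enzyme of melanin synthesis. It had 20.8 and 18.8 RPKM in the cKO CLT libraries, 5.89 in Ctrl CLT 1 and 0.455 in Ctrl CLT 2. In CLH it had 0.729 and 0.709 RPKM in Ctrl and 0.663 and 0.747 in cKO. Both cKO CLT libraries thus lay above every other library, and Ctrl CLT 2 lay below the lowest CLH library.

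*Tyrp1* (chr4:80834230-80851718), whose product acts later in eumelanin synthesis, had 70.1 and 64.4 RPKM in cKO CLT and 16.2 in Ctrl CLT 1. Ctrl CLT 2 had 0.0415 RPKM, which is 3 reads. The CLH libraries held 0 and 0 reads in Ctrl and 1 and 1 in cKO. The mean of cKO CLT was 4.16 times Ctrl CLT 1 and 1622 times Ctrl CLT 2 (95% exact counting interval 555 to 7870, which covers counting error only). *Dct* (chr14:118012790-118052246) encodes dopachrome tautomerase, the enzyme between these steps, and had the highest level of the 10 genes in cKO CLT with 124 and 122 RPKM. The Ctrl CLT libraries had 46.3 RPKM (library 1) and 7.39 (library 2), against 1.77 and 1.59 in CLH of Ctrl mice and 1.39 and 1.94 in CLH of cKO mice. Unlike *Tyr* and *Tyrp1*, *Dct* stood at several RPKM in both Ctrl CLT libraries, each above all 4 CLH libraries.

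**Figure D1:**
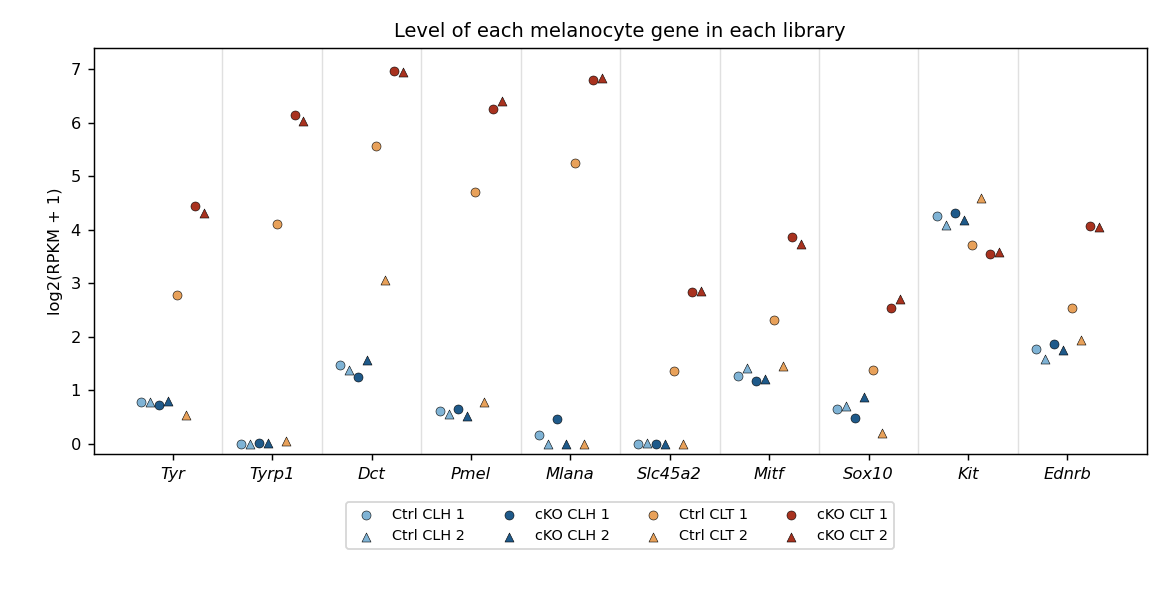
Level of each melanocyte gene in each of the 8 libraries, as log2(RPKM + 1). Circles are library 1 and triangles library 2 of each group. For every gene but *Kit* the cKO CLT pair is highest and Ctrl CLT 1 comes next, and Ctrl CLT 2 lies near the CLH libraries except for *Dct*.

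The melanosome proteins had the same order of libraries. *Pmel* (chr10:128706258-128720238), whose product forms the fibrils on which melanin is laid down, had 75.1 and 84.0 RPKM in cKO CLT, 25.1 in Ctrl CLT 1 and 0.724 in Ctrl CLT 2, and in CLH 0.532 and 0.472 (Ctrl) or 0.570 and 0.429 (cKO). *Mlana* (chr19:29697941-29708306), a melanosome maturation protein, had 111 and 113 RPKM in cKO CLT, 36.9 in Ctrl CLT 1 and no read in Ctrl CLT 2. In CLH it had 0.126 and 0 RPKM in Ctrl and 0.386 and 0 in cKO, the highest of these being 6 reads. *Mlana* was thus detected in quantity in only 3 of the 8 libraries.

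*Slc45a2* (chr15:11000721-11029233), a melanosomal transporter in which mutations lighten the coat, had 6.10 and 6.22 RPKM in cKO CLT and 1.57 in Ctrl CLT 1, with no read in Ctrl CLT 2. In CLH it had 0 and 1 read in Ctrl and no read in cKO. Against a limit of 3 reads in Ctrl CLT 2, the mean of cKO CLT was at least 457 times higher for *Mlana* and at least 163 times higher for *Slc45a2*, while against Ctrl CLT 1 it was 3.03 and 3.92 times higher.

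Both regulators had reads in all 8 libraries. *Mitf* (chr6:97807058-98021358), the lineage determining factor, had 13.5 and 12.2 RPKM in cKO CLT, 3.96 in Ctrl CLT 1 and 1.73 in Ctrl CLT 2. In CLH it had 1.42 and 1.68 RPKM in Ctrl and 1.25 and 1.31 in cKO. *Mitf* also serves osteoclasts and mast cells, and its RPKM joins all its transcript forms. *Sox10* (chr15:79154913-79164490), which melanocytes share with Schwann cells, had 4.79 and 5.49 RPKM in cKO CLT, 1.59 in Ctrl CLT 1, 0.152 (11 reads) in Ctrl CLT 2, and in CLH 0.568 and 0.631 (Ctrl) or 0.393 and 0.836 (cKO). For *Sox10*, Ctrl CLT 2 was the lowest of all 8 libraries.

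The 2 receptors went apart. *Ednrb* (chr14:103814625-103844173), the endothelin receptor B, had 15.8 and 15.6 RPKM in cKO CLT, 4.83 in Ctrl CLT 1 and 2.83 in Ctrl CLT 2, with CLH values of 2.41 and 2.01 (Ctrl) and 2.62 and 2.35 (cKO). *Kit* (chr5:75574987-75656721), the receptor for stem cell factor, was the most abundant of the 10 genes in CLH, with 18.1 and 15.9 RPKM in Ctrl and 18.9 and 17.2 in cKO. It had 12.2 RPKM in Ctrl CLT 1 and 23.3 in Ctrl CLT 2 but 10.7 and 11.1 in cKO CLT. *Kit* was thus the only 1 of the 10 genes whose cKO CLT libraries lay below both Ctrl CLT libraries and below all CLH libraries.

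Because RPKM is scaled to gene length, levels can be set in order between genes. In cKO CLT the order of the mean RPKM ± SD (n = 2) was *Dct* with 123 ± 1.19, *Mlana* with 112 ± 1.34, *Pmel* with 79.6 ± 6.26, *Tyrp1* with 67.3 ± 4.05, *Tyr* with 19.8 ± 1.38, *Ednrb* with 15.7 ± 0.139, *Mitf* with 12.9 ± 0.910, *Kit* with 10.9 ± 0.260, *Slc45a2* with 6.16 ± 0.0853 and *Sox10* with 5.14 ± 0.496. No neighbours in that order overlapped between their 2 libraries. In Ctrl CLT the means ± SD ran from 26.8 ± 27.5 for *Dct* to 0.785 ± 1.11 for *Slc45a2*, and all neighbours overlapped except *Mitf* and *Sox10*. In CLH of both genotypes the order of the means was *Kit*, *Ednrb*, *Dct*, *Mitf* (which overlapped *Dct* in Ctrl) and then the other 6, each under 1 RPKM. Of these 6, none had 1 RPKM in any CLH library, so they entered the tests below only through their CLT values.

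The comparison of cKO with Ctrl in CLT asks whether the pigment genes differed between the genotypes in the tissue of the stem cell progenies. By limma on log2(RPKM + 1) with Benjamini-Hochberg adjustment over 14130 genes, none of the 10 genes (0) reached an adjusted p under 0.05 in either direction, against 0.0708% of all genes called higher and 1.67% called lower. Under an unadjusted p of 0.05 lay 7 of the 10 genes and 5113 of all 14130. The log2 differences (cKO minus Ctrl, ± SE) were 4.19 ± 1.85 for *Mlana*, 4.01 ± 1.43 for *Tyrp1*, 3.58 ± 1.38 for *Pmel*, 2.71 ± 0.80 for *Tyr*, 2.64 ± 0.88 for *Dct*, 2.16 ± 0.51 for *Slc45a2*, 1.91 ± 0.34 for *Mitf*, 1.83 ± 0.45 for *Sox10*, 1.82 ± 0.26 for *Ednrb* and -0.59 ± 0.34 for *Kit*. The adjusted p by limma ran from 0.061 for *Ednrb* to 0.27 for *Kit*. Their median was 2.40, against -0.01 over all genes. In 9 genes both cKO libraries lay above both Ctrl libraries and in *Kit* both lay below, which held for 37.2% and 35.1% of all genes.

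The outcome rested on the spread between the Ctrl CLT libraries. Without Ctrl CLT 1, the other 9 genes were called higher and *Kit* lower (adjusted p 0.00062 by limma). Without Ctrl CLT 2, the same 9 genes were called higher and *Kit* was at -0.15 (adjusted p 0.31 by limma). In both fits the lone Ctrl library was assumed to vary as the cKO libraries do, and 4442 and 4126 genes in all were then called higher, so calls in these fits do not single out pigment genes. With 2 libraries a group, an exact permutation test of a single gene cannot give a two-sided p under 0.333.

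**Figure D2:**
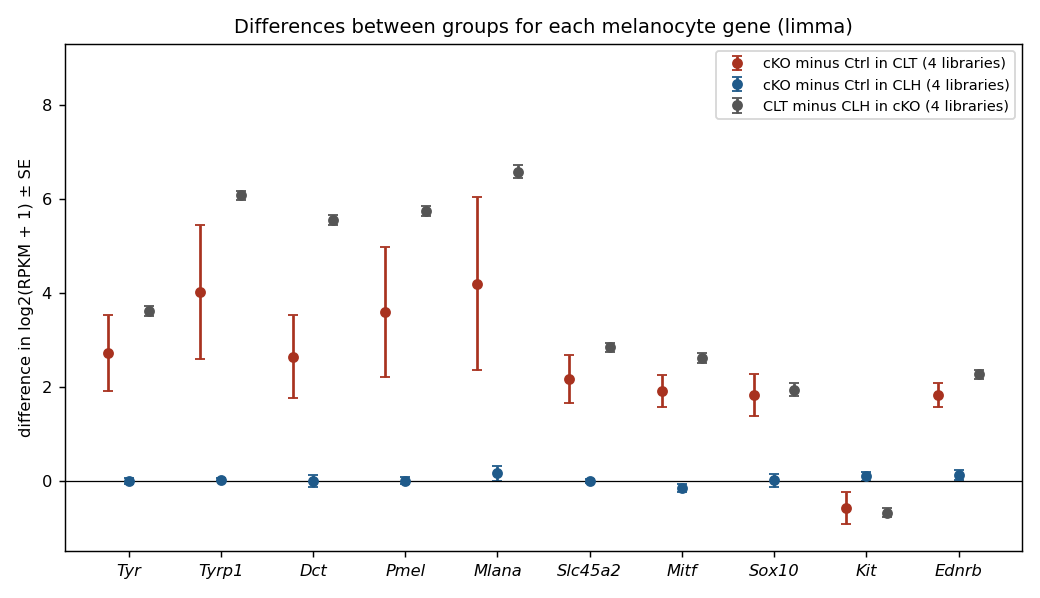
Differences between groups in log2(RPKM + 1) for each gene, with the SE of limma, each from 4 libraries. The differences in CLH lie within 0.17 of 0, those in CLT have wide errors from the Ctrl CLT pair, and those between CLT and CLH within cKO have narrow ones.

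In CLH, which holds the stem cells, no difference between the genotypes was detected. The log2 differences lay between -0.16 for *Mitf* and 0.15 for *Mlana*, with a median of -0.0016 against -0.01 over all genes. By limma, 0 of the 10 genes passed the threshold, as did 0% of all genes in the higher and 0% in the lower direction, and at an unadjusted p under 0.05 there were 0 of the 10 and 1023 of all genes. For *Mitf* both cKO libraries lay below both Ctrl libraries and for *Tyrp1* both lay above (by 1 read each), which held for 18.8% and 19.9% of all genes. *Tyrp1* and *Slc45a2* had at most 1 read in each CLH library, so a difference between the genotypes was not detectable at this depth for them.

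Whether the cKO effect was of another size in CLT than in CLH, tested as an interaction over all 8 libraries by limma, was called for 3 of the 10 genes. This fit assumes a common variance in all groups, but the spread between libraries was 0.404 in Ctrl CLT and 0.092 to 0.113 elsewhere. Its adjusted p can therefore be too low. The difference of the effects was 2.08 ± 0.39 for *Mitf* (adjusted p 0.023), 2.17 ± 0.57 for *Slc45a2* (adjusted p 0.049) and 1.70 ± 0.30 for *Ednrb* (adjusted p 0.019). The others were positive, from 1.83 ± 0.53 for *Sox10* to 4.04 ± 2.12 for *Mlana*, with adjusted p of 0.060 to 0.21 by limma, except for *Kit* with -0.68 ± 0.38 (adjusted p 0.24). The interaction of *Slc45a2* is in effect its difference in CLT, since it had at most 1 read in each CLH library. Of all genes, 8.04% were called higher and 9.58% lower. The 3 calls were lost without any 1 of the 6 libraries other than the Ctrl CLT pair, and without Ctrl CLT 1 or without Ctrl CLT 2 they became 9, in the first case with *Kit* called lower. Under the 7 other alternatives of processing, the calls of *Mitf* and *Ednrb* held in 7 and that of *Slc45a2* in 1, with adjusted p of 0.052 to 0.37 by limma in the 6 where it was lost.

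The comparison of CLT with CLH within cKO does not use the Ctrl CLT libraries. Here 9 of the 10 genes were called higher in CLT and *Kit* lower (limma with Benjamini-Hochberg adjustment), but so were 28.9% and 45.2% of all genes. The log2 differences (CLT minus CLH) were 6.58 ± 0.15 for *Mlana*, 6.08 ± 0.10 for *Tyrp1*, 5.75 ± 0.10 for *Pmel*, 5.55 ± 0.11 for *Dct*, 3.61 ± 0.10 for *Tyr*, 2.84 ± 0.10 for *Slc45a2*, 2.61 ± 0.10 for *Mitf*, 2.26 ± 0.10 for *Ednrb*, 1.94 ± 0.15 for *Sox10* and -0.68 ± 0.09 for *Kit* (adjusted p 0.00018 by limma for *Kit* and lower for the others). Their median was 3.22 against -0.18 over all genes. *Slc45a2* had no read in cKO CLH, and against 3 reads per library it was at least 193 times higher in CLT, which puts the median at 4.58. Under median-of-ratios scaling the median of all genes moved from -0.18 to 0.02 and the calls over all genes from 4080 higher and 6381 lower to 5267 and 4880, with *Kit* at -0.47 (adjusted p 0.0017 by limma) and still lower.

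The same comparison within Ctrl gave 0 of the 10 genes called by limma, against 0.0142% of all genes higher and 0% lower, with *Dct* alone under an unadjusted p of 0.05 (2.89 ± 0.90, adjusted p 0.35 by limma). Over the alternatives of processing, the difference ranged from 1.65 to 4.14 for *Dct*, from -0.086 to 5.16 for *Mlana* and from -0.45 to 0.43 for *Kit*. When either Ctrl CLT library is dropped, its group holds a single library. Calls from such fits were therefore not taken as a result on pigment genes.

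Ctrl CLT 1 held the 9 genes other than *Kit* at a narrow share of their cKO CLT level, as the plot of the Ctrl CLT libraries shows. The share of the cKO CLT mean was 24.1% for *Tyrp1*, 25.5% for *Slc45a2*, 29.7% for *Tyr*, 30.8% for *Ednrb* and *Mitf*, 30.9% for *Sox10*, 31.6% for *Pmel*, 33.0% for *Mlana* and 37.6% for *Dct*. In Ctrl CLT 2 the shares ran from 0% to 18.0%, with the highest values for *Ednrb* (18.0%), *Mitf* (13.4%) and *Dct* (6.01%). Genes of some other tissues lay at a like share in Ctrl CLT 1. The RPKM summed over 12 hair shaft and inner root sheath genes was 32.5% of the cKO CLT mean in Ctrl CLT 1 and 0.136% in Ctrl CLT 2, over 6 skeletal muscle genes 34.7% and 2.62%, over 5 cornified epidermis genes 32.8% and 0.538%, and over 8 mast cell genes 35.02% and 2.15%. Other sums lay higher in Ctrl CLT 1, as with 48.3% for a wider list of melanosome and pigment genes and 57.7% for Schwann cell genes. Basal epithelium genes were at 71.3%, endothelial genes at 103% and leukocyte genes at 114%. Over the 468 genes at 10 RPKM or more in cKO CLT and at least 10 times above Ctrl CLT 2, which include 5 of the melanocyte genes, the median share in Ctrl CLT 1 was 33.4% (quartiles 30.4% and 36.3%). The part of these tissues in the levels of the melanocyte genes was not tested.

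**Figure D3:**
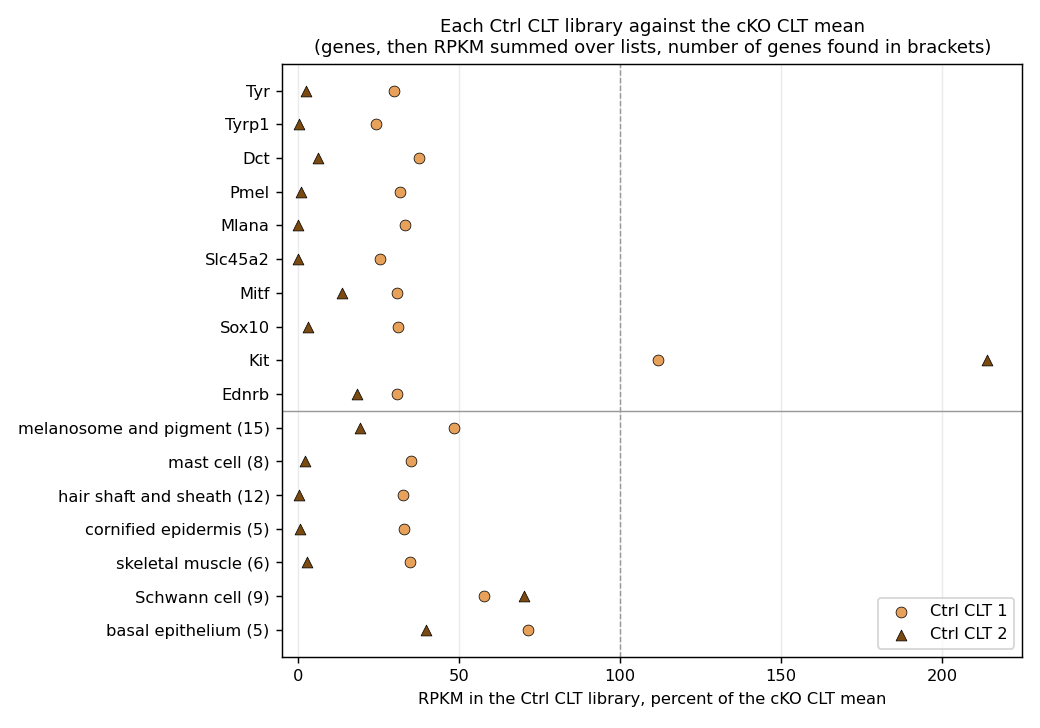
RPKM of each Ctrl CLT library as a percent of the mean of the 2 cKO CLT libraries, for the 10 melanocyte genes and for RPKM summed over lists of genes. In Ctrl CLT 1, 9 of the 10 genes lie between 24.1% and 37.6%, next to the hair, muscle, cornified and mast cell lists, and the dashed line marks the cKO CLT mean. The melanosome and pigment, Schwann cell and basal epithelium lists lie higher in Ctrl CLT 1, at 48.3%, 57.7% and 71.3%.

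Several of the 10 genes are shared with other cell types, whose markers are set beside them. Of 8 mast cell genes (mast cells also use *Kit* and *Mitf*), 8 were higher in both cKO CLT libraries than in both Ctrl CLT libraries (37.2% of all genes were). Of the 6 tested, 0 were called by limma. Their summed RPKM was 93.3 and 93.8 in cKO CLT, 32.8 in Ctrl CLT 1, 2.01 in Ctrl CLT 2 and 4.39 to 5.84 in CLH. The proteases led, as with *Mcpt4* at 33.0 and 30.0 RPKM in cKO CLT, while *Fcer1a*, a subunit of the IgE receptor, had at most 0.0697 RPKM in any library. The sum of the mast cell genes was thus highest in cKO CLT and next in Ctrl CLT 1, as for the pigment genes and opposite to *Kit*. *Gata2*, with 0.924 and 1.45 RPKM in cKO CLT, overlapped its CLH values of 0.850 to 1.12.

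Schwann cell genes, which go with *Sox10*, had another order. Their sum over 9 genes was 32.5 and 35.7 RPKM in cKO CLT, 19.7 and 23.9 in the Ctrl CLT libraries and 35.8 to 42.7 in CLH, so in the sum the cKO CLT pair lay under every CLH library, unlike for *Sox10*. Of these genes 4 were higher in both cKO CLT libraries than in both Ctrl CLT libraries and 5 overlapped. Of the 7 tested, 0 were called by limma (3 at an unadjusted p under 0.05). Of all 14130 genes, 37.2% were higher and 35.1% lower in both libraries. By limma, 0.0708% were called higher and 1.67% lower, and 5113 had an unadjusted p under 0.05. Within cKO, 3 of the 7 tested Schwann cell genes were called higher in CLT than in CLH by limma (*Mbp*, *Mag* and *Prx*), against 28.9% of all genes. For these genes this is the direction of *Sox10*. *Mag* reached 1 RPKM only in the cKO CLT libraries, so it entered the test only through them. Called lower were 2 (*S100b* and *Ngfr*), against 45.2% of all genes. *Mbp*, a myelin protein, had 10.6 and 11.2 RPKM in cKO CLT against 7.08 to 8.30 in CLH, and *Ngfr*, a neurotrophin receptor, had 3.03 and 3.44 against 8.17 to 11.6. Of 6 endothelial genes, which go with *Ednrb*, 1 was higher, 2 were lower and 3 overlapped. Of 7 osteoclast genes, which go with *Mitf*, 6 were lower in both cKO CLT libraries and 1 overlapped, and *Mmp9* alone was called lower by limma, with a sum over the list of 54.1 and 56.4 RPKM in cKO CLT against 193 to 208 in CLH. The plot of marker lists gives the sums for all lists by library.

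**Figure D4:**
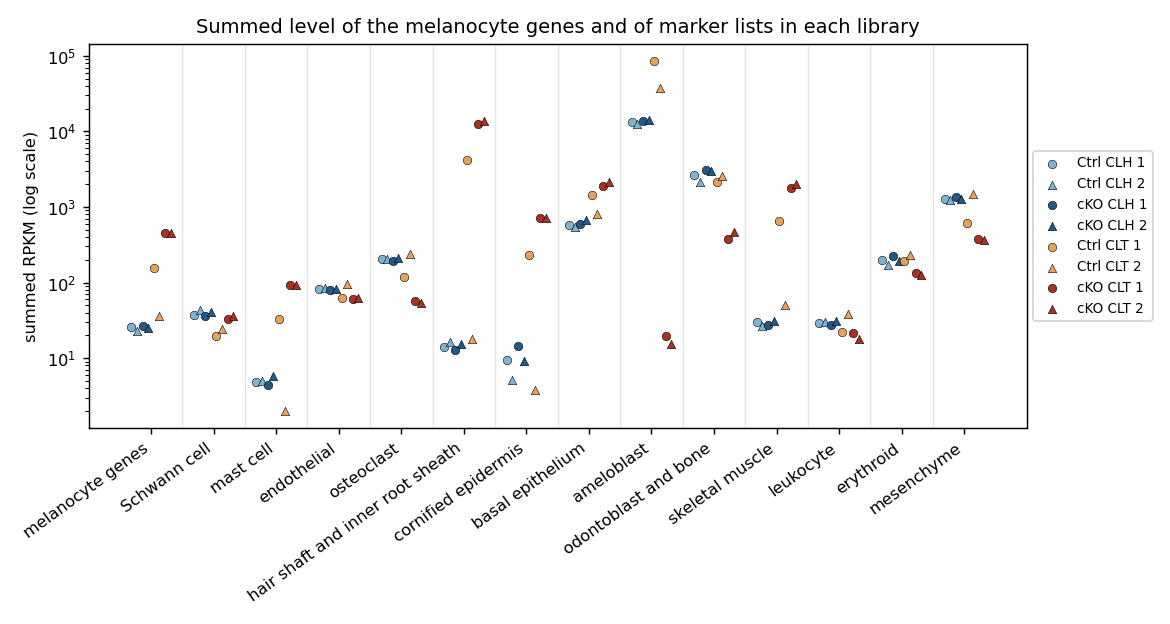
RPKM summed over the 10 melanocyte genes and over each marker list, by library, on a log axis. The melanocyte genes (452 and 453 RPKM in cKO CLT, 155 and 36.6 in Ctrl CLT, 23.0 to 26.2 in CLH) follow the order of the hair, muscle, cornified and mast cell lists, and the ameloblast list is lowest in cKO CLT.

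The remaining lists were lower or mixed in cKO CLT. All 6 genes of the ameloblast list were called lower by limma in CLT. Of the 6 odontoblast and bone genes 4 were called lower, and *Ibsp* had no read in cKO CLT. Leukocyte genes were higher for 1 (*Cd3e*) and lower for 5 of 6, mesenchyme genes lower for 4 and overlapping for 2 of 6, erythroid genes lower for 3 and overlapping for 1 of 4, and basal epithelium genes higher for 3, lower for 1 and overlapping for 1 of 5, by overlap of libraries alone. All 12 hair, 6 muscle and 5 cornified genes were higher in both cKO CLT libraries, with 0 called by limma. Of all genes, 37.2% were higher and 35.1% lower in both cKO CLT libraries, and 0.0708% and 1.67% were called by limma.

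A wider set of melanosome and pigment genes had the same order of libraries in most cases. In CLT, 0 of 15 were called by limma, 12 had an unadjusted p under 0.05, 11 were higher in both cKO libraries (37.2% of all genes were), 3 were lower (35.1% were) and 1 overlapped, and the median log2 difference was 1.32. An unadjusted p under 0.05 was had by 5113 of all 14130 genes. *Gpnmb*, a melanosomal glycoprotein also made by osteoclasts and macrophages, had the highest difference of the list (3.53 ± 1.28), with 176 and 186 RPKM in cKO CLT, 54.6 in Ctrl CLT 1, 3.47 in Ctrl CLT 2 and 0.411 to 0.445 in CLH. The melanosomal chloride and pH gene *Oca2* had 5.98 and 5.58 RPKM in cKO CLT, 1.54 in Ctrl CLT 1, no read in Ctrl CLT 2 and at most 0.107 in CLH. *Rab27a*, which tethers melanosomes to the transport machinery and is used by many secretory cells, had the lowest difference (-0.91 ± 0.30), with 5.63 and 5.23 RPKM in cKO CLT against 14.6 and 8.39 in Ctrl CLT.

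The interaction was called by limma for 7 genes of this list, against 8.04% of all genes called higher and 9.58% lower. It was called higher for *Slc24a5*, *Gpr143*, *Trpm1*, *Mcoln3*, *Rab32* and *Mlph* and lower for *Tpcn2*. The largest was 2.13 ± 0.45 for *Trpm1* (adjusted p 0.029), a cation channel of melanocytes, which had 18.9 and 19.2 RPKM in cKO CLT, 5.48 in Ctrl CLT 1, 2.16 in Ctrl CLT 2 and 2.42 to 2.78 in CLH. That of *Slc24a5*, a melanosomal cation exchanger, was 1.78 ± 0.28 (adjusted p 0.016), with 11.8 and 11.6 RPKM in cKO CLT, 3.77 and 2.43 in the Ctrl CLT libraries and 1.82 to 2.65 in CLH. That of *Tpcn2*, a pore of endolysosomes and melanosomes, was -0.66 ± 0.17 (adjusted p 0.046 by limma). *Gpr143* and *Mlph* reached 1 RPKM in no CLH library, so they entered the test only through CLT values, for *Gpr143* those of cKO alone. Within cKO, 13 of the 15 genes were called higher in CLT than in CLH and 2 lower by limma, against 28.9% and 45.2% of all genes. Of the 15, *Oca2*, *Gpnmb*, *Slc7a11* and *Mc1r*, like *Gpr143* and *Mlph*, reached 1 RPKM in no CLH library. They thus entered this test only through CLT values, so the count of 13 is not independent of the filter.

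Genes for the general assembly of lysosome related organelles, in which mutations dilute pigment (the Hermansky-Pudlak and Chediak-Higashi genes), were mixed. Of 12, 0 were called in CLT by limma (3 at an unadjusted p under 0.05), 4 were higher, 2 lower and 6 overlapped, with shares over all genes of 37.2% higher and 35.1% lower, and the median difference was 0.04 against -0.01 over all genes. The range ran from -0.55 ± 0.20 for *Bloc1s5*, with 6.49 and 6.11 RPKM in cKO CLT, to 0.74 ± 0.18 for *Bloc1s3*, with 9.72 and 8.16 RPKM. No interaction was called for these 12 genes, of which 3 had an unadjusted p under 0.05. Of all 14130 genes, 8.04% were called higher and 9.58% lower, and 5368 had an unadjusted p under 0.05. Within cKO, 4 of the 12 genes were called higher in CLT than in CLH and 3 lower by limma, against 28.9% and 45.2% of all genes. The 12 genes are used in most cell types.

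The ligands and other signals that act on melanocytes were mixed. Of the 9 genes found, 7 were tested and 0 were called in CLT by limma. *Edn1*, a ligand of endothelin receptors, had the highest difference (1.93 ± 0.31), with 16.8 and 16.5 RPKM in cKO CLT, 5.09 and 2.53 in the Ctrl CLT libraries and 1.76 to 2.21 in CLH. *Edn3*, the ligand of *Ednrb* in melanocyte development, had the lowest (-1.77 ± 0.34), with 1.14 and 1.06 RPKM in cKO CLT, 4.36 and 8.57 in the Ctrl CLT libraries and 6.42 to 7.70 in CLH. The 2 endothelins thus stood in opposite order across the same libraries, and the interaction was called for both by limma (2.05 ± 0.36, adjusted p 0.019 for *Edn1*, and -1.74 ± 0.39, adjusted p 0.033 for *Edn3*). It was also called higher for *Atrn* and for *Corin*, a protease that modifies the agouti pathway. *Corin* reached 1 RPKM in no CLH library, so it entered the test only through its CLT values. Of all genes, the interaction was called higher for 8.04% and lower for 9.58%. *Kitl*, the ligand of *Kit*, had 10.1 and 8.23 RPKM in cKO CLT, 6.23 and 3.86 in Ctrl CLT and 3.18 to 4.39 in CLH, and within cKO it was called higher in CLT (1.05 ± 0.13, adjusted p 0.00014 by limma), where *Kit* was called lower.

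Of 10 regulators of neural crest and melanoblasts, 8 were tested. *Tfap2a*, a factor of neural crest and of surface epithelium, was just past the threshold in CLT by limma (1.62 ± 0.18, adjusted p 0.049), with 28.4 and 26.004 RPKM in cKO CLT against 9.18 and 7.26 in the Ctrl CLT libraries and 7.56 to 9.40 in CLH. This call held in 5 of 13 alternatives and was lost, among others, with no filter, with voom and without either cKO CLT library (adjusted p up to 0.46 by limma). The highest difference was 2.86 ± 0.68 for *Erbb3*, a neuregulin receptor of neural crest cells and of epithelia, with 31.8 and 35.5 RPKM in cKO CLT, 8.14 in Ctrl CLT 1 and 1.48 in Ctrl CLT 2. The lowest was -0.91 ± 0.46 for *Zeb2*, with 2.83 and 2.67 RPKM in cKO CLT against 3.61 and 9.69. The interaction was called for *Tfap2a* (1.67 ± 0.22, adjusted p 0.0094 by limma) and *Lef1* (1.94 ± 0.51, adjusted p 0.049). It was called higher for 8.04% of all genes and lower for 9.58%. Of the 13 pathway genes called for the interaction, 12 were lost without any 1 of the 6 libraries other than the Ctrl CLT pair, and *Tfap2a* without any of these but Ctrl CLH 1. Under the 7 other alternatives, *Trpm1*, *Slc24a5*, *Edn1*, *Edn3* and *Tfap2a* were called in all 7, and the other 8 genes in 1 (*Mlph*) to 6 (*Mcoln3*). *Pax3*, which with *Sox10* acts on *Mitf*, was not tested for its low level and had 1.10 and 0.938 RPKM in cKO CLT and 0.406 to 0.943 in CLH.

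**Figure D5:**
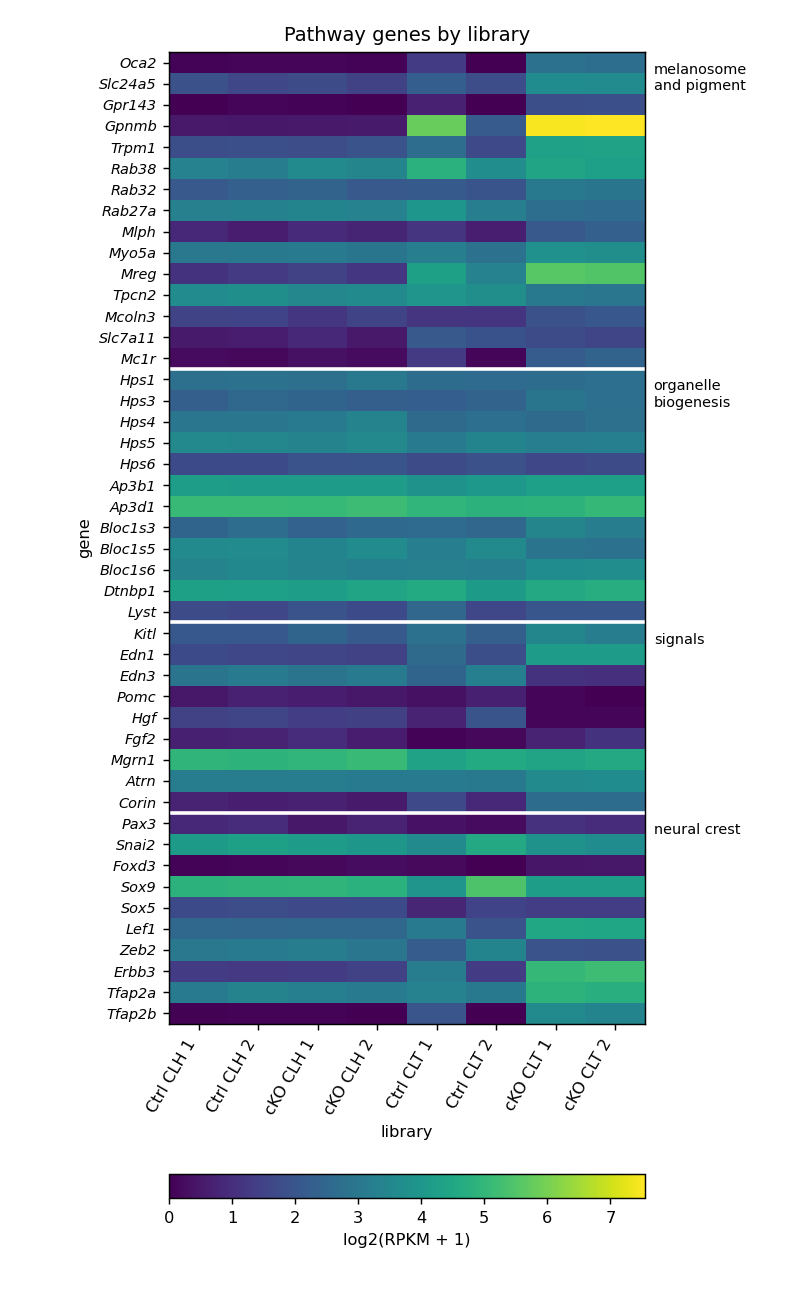
Level of 46 pathway genes in each library, as log2(RPKM + 1), grouped from top to bottom as melanosome and pigment genes, organelle biogenesis genes, signals to melanocytes and neural crest regulators. *Gpnmb* is brightest in cKO CLT and in Ctrl CLT 1, and the summed level of the 12 organelle genes lies between 113 and 133 RPKM in the 8 libraries.

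The genes most alike to the pigment genes across the 8 libraries were ranked with the members left out. None of the first 10 was on the pathway lists. Likeness was Pearson's r with the mean standardized log2(RPKM + 1) of the 6 enzyme and melanosome genes, over 8 libraries of which the 3 with high values decide it. The 10 highest outside the members, all at 0.999 or more, were *Elovl3*, *Rnf19b*, *Atp2c2*, *Elf5*, *Krtap4-9*, *Awat1*, *Gm11937*, *Krt39*, *Hsbp1l1* and *Hephl1*, which include a hair keratin (*Krt39*) and a keratin associated protein (*Krtap4-9*). *Krt39* had 51.2 and 53.1 RPKM in cKO CLT, 12.6 in Ctrl CLT 1 and no read in Ctrl CLT 2. In all, 1511 genes outside the members had an r of at least 0.95, so this order of libraries was not particular to pigment genes. The 6 enzyme and melanosome genes, with up to 0.9995 for *Tyrp1*, are part of that mean, so their own r is high by construction. The other members had 0.952 (*Sox10*), 0.968 (*Ednrb*), 0.980 (*Mitf*) and -0.904 (*Kit*).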

How the data were processed

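The 10 genes, the lists, the tests and the alternatives were chosen with earlier results of these data known. The RPKM values of 23358 genes in 8 libraries, with the length of each gene, were deposited by the authors as 1 table. Per the labels' processing notes, the tools were FastQC 0.72, Trim Galore 0.4.3.1, STAR 2.6.0b-1, featureCounts 1.6.3 and DESeq2 2.11.40.2, with mm10. The roles of these tools, beyond the methods of the study (alignment with STAR, counting with featureCounts), and the annotation, the strand setting and the total behind the RPKM are not given in the sources used here, so reads of overlapping genes cannot be told apart. Coordinates are those of the table. Of the columns with values per sample, 0 stayed unused.

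RPKM times gene length were whole multiples of 1 step per library for 100.0% of the low values checked (tolerance 0.01 of a step), which gave the reads behind each value and the totals. Of these, 82.2% to 85.6% lay on genes. A value of 0 is no read, and lower limits of a fold against it were set with 3 reads in its place. Genes with names on more than 1 row (26 names, 69 rows) were left out, and the tests took genes that reached an RPKM of 1 in 2 or more of the 8 libraries. log2(RPKM + 1) was tested with limma 3.58.1 (lmFit, eBayes with a variance trend, two-sided) in R 4.3.3, within the 4 libraries of each comparison or, for the interaction, over all 8, with adjustment after Benjamini-Hochberg and calls at an adjusted p under 0.05. Differences on this scale understate changes of low genes. Since RPKM are not counts, voom on the recovered reads served only as an alternative. Further alternatives were pseudocounts of 0.1 and 0.5, no filter, median-of-ratios scaling, 1 fit of all 8 libraries, no variance trend, a block for the replicate number and each library left out. The fits were tested on 3 draws of reads simulated with the same spread in all groups, so not under the wider spread of Ctrl CLT. In CLT, 188 to 193 of 200 changed genes were called the right way, beside 19 to 31 unchanged genes. For the interaction these were 135 to 144 of 200 and 14 to 19.

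The named genes were the 10 members and, of each pathway list, those past the threshold in a comparison (at most 6 by p) with the highest and lowest in CLT, and *Pax3*, *Kitl*, *Oca2* and the single marker genes were named after their values were seen. *Asip*, *Flg* and *Hbb-bt* of the lists were not matched in the table. A further marker gene is not reported here and was left out of its list's counts and sums. *Bloc1s5*, *Bloc1s6*, *Ncmap*, *Adgre1* and *Hbb-bs* were matched by older names. The libraries are biological duplicates by the study's methods, and replicate numbers were not taken as pairs. Libraries of the same litter were thus treated as independent, since their match is not given.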

Additional observations from a re-analysis of the deposited data

Results flagged for a closer look

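For *Mitf*, *Slc45a2* and *Ednrb* the difference between cKO and Ctrl was called as not the same in CLT and CLH by the interaction test of limma over all 8 libraries. *Slc45a2* had at most 1 read in each CLH library and entered the test only through its CLT values. Its interaction is thus in effect its difference in CLT, which was not called. The difference of the cKO effect (CLT minus CLH, on log2(RPKM + 1)) was 2.08 for *Mitf* (SE 0.39, adjusted p 0.023), 2.17 for *Slc45a2* (SE 0.57, adjusted p 0.049) and 1.70 for *Ednrb* (SE 0.30, adjusted p 0.019). The test assumes a common variance in all groups, which the wider spread of the Ctrl CLT pair does not meet, so its adjusted p can be too low. Each call was lost without any 1 of the 4 CLH or 2 cKO CLT libraries. That of *Slc45a2* was also lost under 6 of the 7 other alternatives, while those of *Mitf* and *Ednrb* held under all 7.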

How the results depend on the processing

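The calls in CLT turned on the spread between the Ctrl CLT libraries, and differences of *Tyrp1*, *Slc45a2* and *Mlana* in CLH were limited by depth, at 0 to 6 reads per library. In CLT (main 0 of 10 called higher, 10 genes higher and 236 lower in all), 8 members were called higher with all 8 libraries in 1 fit (3352 and 2832 genes) and 9 with a replicate block (931 and 866 genes). Leaving out 1 library gave 0 to 9 members higher and 0 to 1 lower, with 0 to 4442 genes higher and 11 to 5389 lower. No filter gave 0 and 3 genes, and voom 0 and 0. Same-numbered libraries correlated in their deviations from group means at -0.19 in CLT and 0.065 in CLH. Between the regions the correlation was 0.20 in Ctrl and 0.31 in cKO, with 2 libraries a group. Ctrl mice were littermates of cKO mice, but which libraries share a litter or mice is not given in the sources used here. The numbers were thus not taken as pairs, and the tests treated related libraries as independent. A crossed replicate block, chosen after seeing the data, called 0 members, 0 genes higher and 9 lower.

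For the interaction (main 3 higher, 1136 and 1353 genes), leaving out 1 library gave 0 to 9 members higher and 0 to 1 lower, with 2 to 4022 genes higher and 195 to 4898 lower, and the replicate block gave 510 and 933 genes. Within cKO, the members' median of 3.22 became 5.30 and 3.90 with pseudocounts of 0.1 and 0.5, 3.35 with median-of-ratios scaling and 5.55 with voom, and 0 members were called lower with all 8 libraries in 1 fit (3214 and 4437 genes). Within Ctrl (main 0 members, 2 and 0 genes), leaving out 1 library gave 0 to 9 members higher, 0 to 2602 genes higher and 0 to 4950 lower. All 8 libraries in 1 fit gave 350 and 500 genes, the replicate block 5 and 0, no filter 0 and 0, and median-of-ratios scaling, no variance trend and voom 1, 1 and 0 higher. Apart from CLT, the replicate block changed 1 call of a member, *Slc45a2* in the interaction (adjusted p 0.066 by limma), which was also lost with pseudocounts of 0.1 and 0.5, no filter, median-of-ratios scaling and voom (adjusted p 0.052 to 0.37).

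Signs turned only in differences that were not called. For *Sox10* in CLH the difference was -0.040, -0.0087 and -0.10 with pseudocounts of 0.1 and 0.5 and with voom, and within Ctrl it was -0.10 with a pseudocount of 0.1 and -0.20 with voom. For *Kit* within Ctrl it was 0.15 with median-of-ratios scaling. Leaving out 1 library gave, in CLH, -0.17 to 0.13 for *Dct*, -0.072 to 0.065 for *Pmel*, -0.20 to 0.20 for *Sox10*, -0.0016 to 0.17 for *Kit*, -0.048 to 0.023 for *Tyr* and -0.086 to 0.38 for *Mlana*, and within Ctrl -0.45 to 0.43 for *Kit*, -0.24 to 2.003 for *Tyr*, -0.086 to 5.16 for *Mlana*, -0.0089 to 1.35 for *Slc45a2* and -0.47 to 0.69 for *Sox10*. The cause of these changes was not tested.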
